A study of Mus musculus with 2 samples.

Results

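The insulin-like growth factor (IGF) genes studied here were the ligand gene Igf1, the receptor genes Igf1r and Igf2r, and the 7 binding protein genes Igfbp1 to Igfbp7, 10 genes of the 41709 in the deposited tables, chosen by symbol and matched through their NCBI gene numbers. All 10 reached the minimum of 50 reads in at least 1 library, and 9 reached it in both, Igfbp1 being the exception. Polyadenylated RNA of whole C57BL/6 mouse lung at E14.5, an embryonic stage when the airways branch, was sequenced in 2 libraries, each made from 7 pooled lungs. The control library carries the genotype label control. The other carries the genotype label Prmt5 knockdown and a title naming Shh and Prmt5, and neither says which alleles, driver or cells were involved. With 1 library per genotype there was no replicate, so no p-value is given and every difference is one between these 2 libraries.

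IGF1 and IGF2 are secreted growth factors of fetal tissues, IGF1 being made largely by mesenchyme in the developing lung. Both signal through the tyrosine kinase receptor IGF1R and its insulin receptor relatives, whereas IGF2R, the mannose-6-phosphate receptor, takes IGF2 into lysosomes for breakdown. The binding proteins IGFBP1 to IGFBP6 hold IGFs outside the cell with high affinity and can block or prolong their action, and IGFBP7 binds them weakly. IGFBP1 is a secreted product of fetal and adult liver cells that insulin represses.

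The upstream sequences of 3 binding protein genes are shown because Igfbp1 had the highest and Igfbp2 the lowest ratio between the libraries, and Igfbp5 is the direct neighbour of Igfbp2 with a ratio of the other sign. They come from RefSeq on GRCm38.p6 and stop before the first base that GENCODE M21 places in an exon. Igfbp1 is shown for chr11:7197537-7197781 (plus strand), Igfbp2 for chr1:72824230-72824479 (plus strand) and Igfbp5 for chr1:72874885-72875115 (minus strand), each read 5′ to 3′ along the gene. Capitals mark a match to the insulin response core.
Igfbp1: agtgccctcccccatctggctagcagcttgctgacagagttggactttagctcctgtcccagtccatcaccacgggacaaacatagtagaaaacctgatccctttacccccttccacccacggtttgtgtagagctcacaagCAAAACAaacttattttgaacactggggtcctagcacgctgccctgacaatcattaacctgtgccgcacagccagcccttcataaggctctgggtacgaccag
Igfbp2: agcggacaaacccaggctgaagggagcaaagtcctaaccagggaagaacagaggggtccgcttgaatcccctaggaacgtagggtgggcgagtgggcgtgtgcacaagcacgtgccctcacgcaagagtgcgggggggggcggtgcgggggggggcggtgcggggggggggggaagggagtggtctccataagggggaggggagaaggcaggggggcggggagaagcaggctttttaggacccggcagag
Igfbp5: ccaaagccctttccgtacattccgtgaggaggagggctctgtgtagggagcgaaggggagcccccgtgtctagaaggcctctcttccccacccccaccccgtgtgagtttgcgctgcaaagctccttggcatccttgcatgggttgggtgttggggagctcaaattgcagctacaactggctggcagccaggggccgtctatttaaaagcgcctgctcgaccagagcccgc

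RefSeq start sites were matched for all 10 genes (Igfbp2 had 2, of which the first is shown), and the 250 bases before each start were searched on both strands for 3 short motifs. The Igf1 window (chromosome 10, 87860861 to 87861110) lies inside the gene and begins within an annotated exon. Those of Igfbp3 and Igfbp4 also lie inside their gene spans, but outside exons. The insulin response core, CAAAACA, occurs in 5.56% of all 32851 promoter windows of that length. Among the IGF genes it was found in the Igfbp1 window, 102 to 108 bases before the start, and in no other. A TATA box, TATAAA, is in 12.4% of all windows and was found 23 to 28 bases before the Igfbp4 start and, on the opposite strand, 143 to 148 bases before the Igfbp6 start. The forkhead core, GTAAACA, is in 3.17% of all windows and was found in none of those of the IGF genes. The Igfbp1 window had a G and C content of 53.2% with 5 CpG dinucleotides, near the medians of all windows (52.4% and 6), while the window of Igf1r held 77.6% and 42 CpG and that of Igfbp3 73.2% and 32. These matches describe letters and not bound sites.

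Counted reads came to 22581490 in the control, fewer than the 25829281 of the other library. Prmt5, an arginine methyltransferase gene, had 2704 and 2127 reads and was 1.35-fold lower, short of the 1.5-fold used below, and Shh had 1124 and 109. The lung markers Nkx2-1 and Sftpc were counted in both libraries, at 7550 and 8880 reads in the control against 895 and 1313 in the knockdown library. Of 12 lung epithelium markers 9 were lower and none higher (median log2 ratio -2.01). All 12 liver, 10 heart muscle and 8 skeletal muscle markers were higher (medians 7.40, 5.66 and 5.32), although both samples are labelled lung. So were 9 of 11 red blood cell, 5 of 6 neuron and glia, and 4 of 4 measured adrenal cortex markers. Of 12 lung mesenchyme markers 2 were higher and 5 lower, of 6 measured smooth muscle markers 2 and 3, and of 5 measured cartilage markers 2 and 1. In whole lung, fewer cells of a type and less RNA per cell cannot be told apart.

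Of the 10 IGF genes 5 were higher and 2 lower in the knockdown library, and the other 3 stayed within what is called here the rule of size. That rule asks for a ratio of at least 1.5 in either direction on counts scaled by the trimmed mean of M values, with a 95% counting interval that excludes no change. These intervals cover counting error only, and not the spread between lungs or library preparations. Across all 14569 genes with enough reads, 20.7% were higher and 12.3% lower by the same rule (3020 and 1795 genes, or 2673 and 2436 with total counts). The median log2 ratio (knockdown over control) of the 10 genes was 0.57, against -0.01 over all genes measured. The higher genes were Igfbp1, Igfbp3, Igfbp7, Igfbp6 and Igfbp5, all of them binding proteins, and the lower ones Igfbp2 and Igf1r. Igfbp5 and Igf1r lay just past the ratio of 1.5 and Igf1 just short of it, so the calls of the first pair depend on scaling. With total counts, with totals that leave out red blood cell and mitochondrial genes, or with FPKM, 4 were higher and 2 lower, since Igfbp5 dropped out. Over all 14569 genes these settings gave 2132 to 2767 higher and 1686 to 2436 lower. With DESeq2 size factors 5 were higher and 1 lower, since Igf1r dropped out, against 3127 and 1653 of all 14569 genes.

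**Figure D1:**
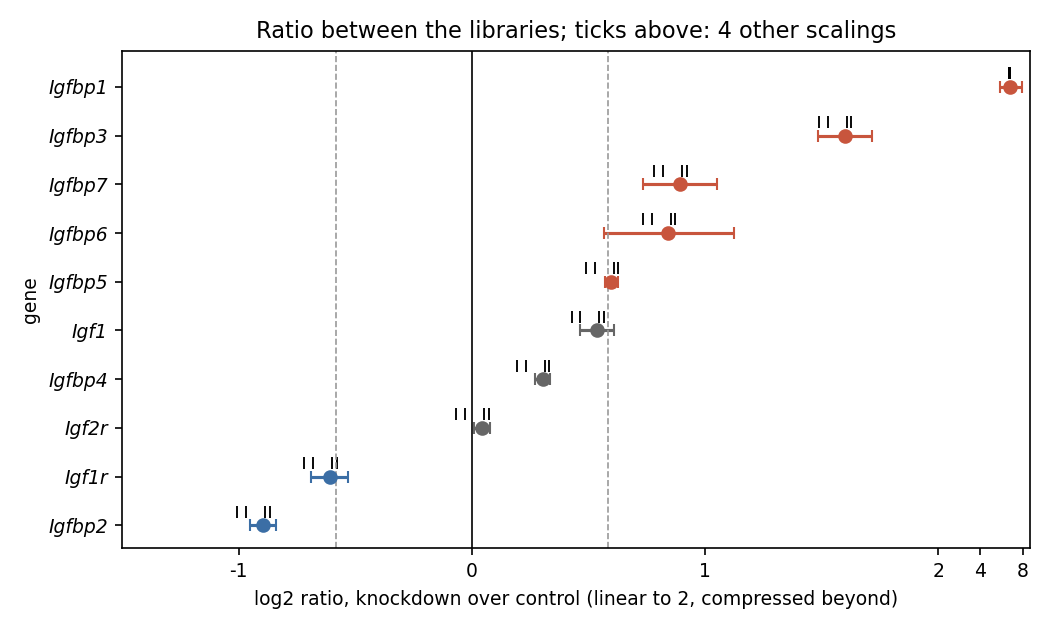
Log2 ratio of knockdown over control for the 10 IGF genes, with 95% counting intervals as bars and the values under 4 other scalings as ticks above each point; dashed lines mark a ratio of 1.5 in either direction. Red points are the 5 higher genes, blue the 2 lower and grey the 3 others, and Igfbp1 at 6.49 stands far from Igfbp3, the next at 1.60.

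The ligand gene Igf1 (NCBI gene 16000, on mm10 chromosome 10, 87858265 to 87937047, plus strand) had 2523 reads in the control against 3880 in the knockdown library. Its level, in reads scaled to gene length and library total, was 16.0 and 21.5 FPKM. The knockdown library was the higher one, by 1.45-fold (log2 0.54, interval 0.46 to 0.61), which falls short of the rule. The 12 mesenchyme markers did not move together. Tbx4 (log2 -2.06), Wnt2 (-2.02), Foxf1 (-1.87), Tbx5 (-1.28) and Tcf21 (-0.76) were lower, and Dcn (1.57) and Twist1 (2.86) were higher. The collagen genes Col1a1, Col1a2 and Col3a1 (0.35, 0.44 and 0.22), Fgf10 (0.38) and Pdgfra (-0.24) did not pass. The list summed to 1894 and 1966 FPKM, most of it from the 3 collagen genes, and none of its genes was at 0. The part of cell composition in the Igf1 value was not tested. Igf2, the main fetal ligand, was far more abundant in both libraries. Igf2 had 42095 and 109760 reads and was 2.46-fold higher (log2 1.30, 1.28 to 1.31). The part of RNA from other organs in the Igf2 value was not tested. The level of Igf2 over that of Igf1 within a library was 33.5 in the control against 56.8 in the knockdown library. That ratio needs no scaling between libraries and was 1.70 times as large in the knockdown library (1.61 to 1.79). Igf2 overlaps the antisense transcript Igf2os, which had 487 and 739 reads, and the strand setting of the counts is not stated in the labels. The insulin genes Ins1 and Ins2 had no control reads and 2 and 5 knockdown reads.

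The receptor gene Igf1r (NCBI gene 16001, chromosome 7, 67952257 to 68233668, plus strand) had 3212 reads in the control against 2231 in the knockdown library, 12.1 and 7.36 FPKM. It was 1.53-fold lower (log2 -0.61, -0.69 to -0.53) and stood below most genes, with 11.5% of the measured genes having a lower ratio. Markers of lung epithelium and endothelium were lower in the same library. The epithelium list summed to 1158 FPKM in the control against 345 in the knockdown library, and the endothelium list, with 5 of 10 genes lower and none higher, to 480 and 293. No marker of either list was at 0. The part of these cell types in the Igf1r value was not tested. Set against the mesenchyme median (-0.01) the Igf1r ratio stayed at -0.60. Set against the endothelium median (-0.59) it was -0.02, and set against the epithelium median it turned positive, at 1.40. The neighbours of Igf1r were the intermediate filament gene Synm, which was lower (log2 -0.70), and Fam169b, which was higher from few reads (22 and 70, log2 1.56).

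Igf2r (NCBI gene 16004, chromosome 17, 12682406 to 12769706, minus strand) had 13451 and 14688 reads, 59.7 and 57.0 FPKM. The log2 ratio was 0.04 (0.01 to 0.08), and its sign depended on scaling, being -0.07 with total counts. Igf2r is known in mouse as an imprinted gene that is silenced on the paternal copy together with transcription of Airn, an antisense RNA that starts inside it. Airn had 331 and 285 reads (log2 -0.30, -0.53 to -0.07). The span shared by both genes is 28396 bp, and reads there cannot be assigned by strand without knowing the counting setting. Within a library, Igf2r stood at 4.93 times the level of Igf1r in the control against 7.75 times in the knockdown library, a 1.57-fold difference (1.48 to 1.67) that is free of scaling. The insulin receptor gene Insr had 1248 and 1452 reads (log2 0.13, 0.02 to 0.24) and did not pass the rule. Insr stood at 0.485 times the Igf1r level in the control against 0.813 times in the knockdown library.

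Igfbp1 (NCBI gene 16006, chromosome 11, 7197787 to 7202546, plus strand) showed the largest ratio of the 10 genes. It had 7 reads in the control (exact Poisson interval 2.81 to 14.4) and 714 in the knockdown library, or 0.204 and 18.2 FPKM. The knockdown library was 90.0-fold higher (log2 6.49, 5.54 to 7.91), and 99.1% of the measured genes had a lower ratio. The control level was the lowest of the 10 genes and the knockdown level the eighth. Marker lists of 3 other organs held log2 ratios on both sides of this value, namely liver (5.68 to 8.45), heart muscle (3.72 to 8.47) and adrenal cortex (3.50 to 10.52). Of the liver markers all 12 were higher, with none at 0 in either library and a summed level of 50.002 FPKM in the control against 6576. They took 0.00962% of control reads and 1.20% of knockdown reads. The Igfbp1 level over that of the liver serum protein gene Alb was 0.0200 in the control against 0.00914 in the knockdown library. The second ratio was 0.456 times the first, with an interval from 0.219 to 1.15 that includes 1. This interval is wide because Igfbp1 had 7 control reads. Alb (log2 7.72) is 1 of the 12 liver markers, and no such ratio was formed with the others or with heart or adrenal markers. Since liver markers lay on both sides of Igfbp1 (5.68 to 8.45), the direction of such a ratio depends on the marker. Set against the liver median (7.40), the Igfbp1 value was -0.90. The heart muscle list summed to 186 and 5274 FPKM and the adrenal cortex list to 1.35 and 92.2 FPKM. The part of RNA from any of these organs in the Igfbp1 value was not tested.

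Igfbp3, the main carrier of IGFs in serum, lies next to Igfbp1 (NCBI gene 16009, chromosome 11, 7206086 to 7215498, minus strand). The genes are separated by 3539 bp and point toward each other. Igfbp3 had 813 and 2610 reads, 14.53 and 40.8 FPKM, and was 3.03-fold higher in the knockdown library (log2 1.60, 1.48 to 1.71). Both genes of the pair were therefore higher, but not equally, since Igfbp1 over Igfbp3 went from 0.0140 to 0.446, a factor of 31.8 (15.2 to 79.6). On the other side of Igfbp1, the adenylyl cyclase gene Adcy1 had 444 and 415 reads (log2 -0.18, -0.38 to 0.01). Beyond Igfbp3, the nearest measured gene was the focal adhesion gene Tns3, 1216153 bp away, which was lower (log2 -0.83). Igfals, whose product binds IGF and IGFBP3 or IGFBP5 in a serum complex and is made by liver, had 12 and 75 reads (log2 2.51, 1.67 to 3.57).

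Igfbp2 (NCBI gene 16008, chromosome 1, 72824480 to 72852474, plus strand) had the lowest ratio of the 10 genes. It had 7288 reads in the control against 4150 in the knockdown library, 285 and 142 FPKM. It was 1.86-fold lower (log2 -0.90, -0.95 to -0.84), and 6.10% of the measured genes had a lower ratio. Its direction was the same under all 7 other choices of scaling, prior count or unit, between -1.01 and -0.87. Against the epithelium median of -2.01 the value was 1.12, against the endothelium median -0.31 and against the mesenchyme median -0.88. The part of epithelial RNA in it was not tested.

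Igfbp5, which binds to extracellular matrix, lies 5590 bp from Igfbp2 and points toward it (NCBI gene 16011, chromosome 1, 72858065 to 72874865, minus strand). Igfbp5 had 16901 and 27107 reads, the most of the 10 genes in both libraries, at 128 and 179 FPKM. It was 1.51-fold higher (log2 0.60, 0.57 to 0.63), and with total counts the log2 value was 0.49 and short of the rule. The neighbours differed in sign under each of the 7 other choices of scaling, prior count or unit. The Igfbp5 level was 0.448 times that of Igfbp2 in the control against 1.26 times in the knockdown library, a factor of 2.82 (2.70 to 2.94) that no scaling between libraries enters. The nearest measured genes beyond the pair were the ribosomal protein gene Rpl37a (log2 0.26) and the focal adhesion gene Tns1 (-0.19). Rpl37a lies 110666 bp from Igfbp2 and Tns1 1035366 bp from Igfbp5, and neither passed the rule.

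Igfbp4 (NCBI gene 16010, chromosome 11, 99040005 to 99052655, plus strand), a binding protein that the protease PAPPA cleaves, had 14749 and 19291 reads. Its FPKM, 316 and 361, was the highest of the 10 genes in both libraries. The log2 ratio was 0.30 (0.27 to 0.33), a 1.23-fold difference that did not pass the rule. The cell cycle gene Top2a and the chromatin gene Smarce1 on either side of it had log2 ratios of -0.32 and -0.27. Pappa had 629 and 530 reads (log2 -0.33) and its relative Pappa2, which cleaves IGFBP5, 699 and 683 reads (log2 -0.12). Neither passed the rule.

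Igfbp6 and Igfbp7 were the other higher members. Igfbp6, which prefers IGF2 over IGF1 (NCBI gene 16012, chromosome 15, 102144186 to 102149512, plus strand), had 164 and 312 reads, 5.63 and 9.37 FPKM. It was 1.79-fold higher, with a wide interval at this depth (log2 0.84, 0.57 to 1.13). Its neighbour Soat2, a cholesterol esterification enzyme of liver and intestine 902 bp away, had 11 and 544 reads (log2 5.48), and Spryd3 on the other side did not pass (log2 0.52). Igfbp7, an abundant product of blood vessels (NCBI gene 29817, chromosome 5, 77349240 to 77408045, minus strand), had 494 and 972 reads, 18.7 and 32.2 FPKM. It was 1.86-fold higher (log2 0.89, 0.73 to 1.05) in the library where no endothelium marker was higher. Igfbp7 overlaps the end of Polr2b by 89 bp on the opposite strand. Its measured neighbours Noa1 and Adgrl3, 38826 and 3611039 bp away, did not pass (log2 0.03 and -0.14). Mesothelium and immune markers were also higher in that library, 5 of 6 and 7 of 7, with summed levels of 130 and 61.5 FPKM in the control and 196 and 134 in the knockdown library and none at 0. The part of these cells, or of RNA from liver, heart or skeletal muscle, in the values of Igfbp3, Igfbp5, Igfbp6 and Igfbp7 was not tested.

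**Figure D2:**
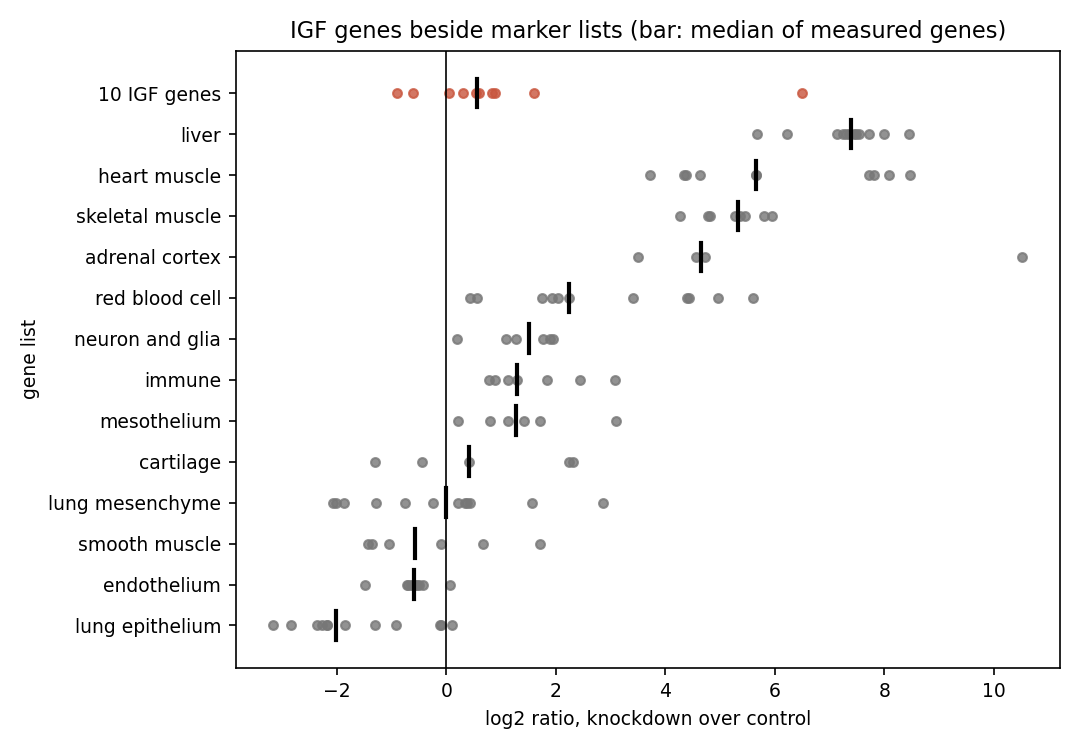
Log2 ratio of knockdown over control for the 10 IGF genes (red) and for the measured genes of 13 marker lists (grey), with a black bar at each median. Igfbp1, at 6.49, lies within the ranges of the liver, heart muscle and adrenal cortex lists, and the other 9 IGF genes lie between -0.90 and 1.60.

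The order of levels within a library was led by Igfbp4 at 316 FPKM and Igfbp2 at 285 FPKM in the control, followed by Igfbp5 at 128 and Igf2r at 59.7. Igfbp7, Igf1, Igfbp3 and Igf1r formed a middle group between 12.1 and 18.7 FPKM, and Igfbp6 and Igfbp1 came last. In the knockdown library Igfbp5 stood above Igfbp2, Igfbp3 stood at rank 5 in place of rank 7, and Igf1r was last at 7.36 FPKM. These ranks rest on the gene lengths in the deposited FPKM. For Igfbp4 that length, 2069 bp, is 0.469 times the union of its GENCODE M21 exons, and for Igfbp2 0.613 times. With the union lengths, Igfbp2 was first and Igfbp4 second in the control, and Igfbp5 was first and Igfbp4 second in the knockdown library.

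**Figure D3:**
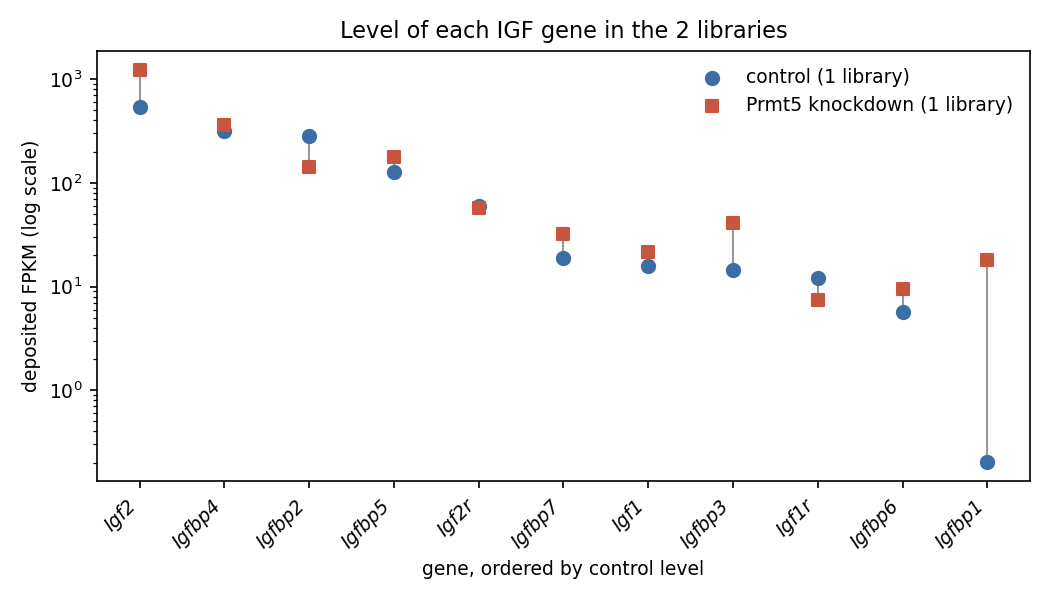
Deposited FPKM (log axis) of Igf2 and the 10 IGF genes in the control library (blue circles) and the knockdown library (red squares), ordered by control level. The symbols of Igfbp4 and Igf2r nearly coincide, those of Igfbp2 and Igf1r are lower in the knockdown library, and Igfbp1 spans 0.204 to 18.2 FPKM.

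The 7 binding protein transcripts summed to 768 FPKM in the control against 783 in the knockdown library, and their make-up differed. With exon union lengths the sums were 484 and 523, and on reads the 7 genes took 0.179% of the control library and 0.214% of the knockdown library. Igfbp2 made up 37.1% of that sum in the control against 18.1% in the knockdown library. Igfbp4 went from 41.1% to 46.1% and Igfbp5 from 16.7% to 22.9%. The share of Igfbp3 was 1.89% and 5.21%, that of Igfbp7 2.44% and 4.12%, that of Igfbp6 0.734% and 1.20%, and that of Igfbp1 0.0266% and 2.32%. Together Igfbp2, Igfbp4 and Igfbp5 held 94.9% of the control sum and 87.2% of the knockdown sum. On read counts, which weigh long transcripts more, the Igfbp2 share was 18.03% (exact interval 17.7% to 18.4%) and 7.52% (7.31% to 7.75%), so it was lower in the knockdown library on both scales. The Igfbp4 share was lower on reads and higher on FPKM, 36.5% of the control reads and 34.98% of the knockdown reads. The sum of the 7 binding proteins was 1.39 times that of Igf1 and Igf2 in the control against 0.631 times in the knockdown library. With GENCODE union lengths these ratios were 1.43 and 0.691. They are levels of RNA and not of secreted protein. Igf2 gave 535 of the 551 FPKM of the ligand sum in the control and 1219 of 1240 in the knockdown library. The part of RNA from liver, heart or skeletal muscle in the Igf2 level was not tested.

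**Figure D4:**
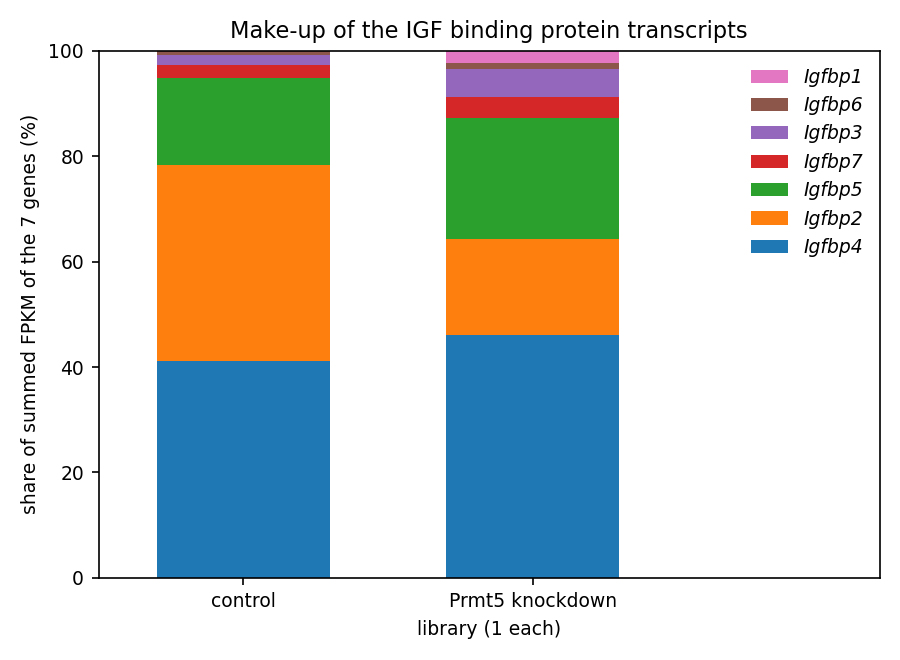
Share of each binding protein gene in the summed FPKM of all 7, in the control and the knockdown library (1 library each, bars from 0 to 100%). The Igfbp2 block is smaller in the knockdown library, 18.1% against 37.1%, and the blocks of Igfbp5, Igfbp3 and Igfbp1 are larger.

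Of the 45 other genes of the IGF axis that were listed, 40 had enough reads, of which 9 were higher and 4 lower, leaving 27 short of the rule. Over all measured genes 20.7% were higher and 12.3% lower, so both counts were near the background. Their median log2 ratio was -0.13. With total counts 7 were higher and 5 lower. Among partners, proteases and relatives of the binding proteins 4 of 9 were higher and 1 lower. The higher ones were Igfals, the IGFBP-like genes Igfbpl1 (18 and 226 reads, log2 3.53) and Kazald1 (49 and 234 reads, log2 2.16), and the secreted protease gene Htra1 (340 and 816 reads, log2 1.18). The lower one, Adam12, a metalloprotease that cleaves IGFBP3 and IGFBP5, had 3647 and 1982 reads (log2 -0.96) and was named after its value was seen.

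In the growth hormone arm, which controls Igf1 in liver after birth, Stat5a (log2 1.11) and Jak2 (0.65) were higher and the feedback inhibitor gene Socs2 was lower (-0.78). Jak2 fell short of the ratio of 1.5 with total counts (0.54), with FPKM (0.54 and 0.48) and with totals that leave out erythroid and mitochondrial genes (0.58). Growth hormone itself had 0 reads in both libraries. Of 7 measured adaptors that act just behind IGF1R and the insulin receptor, 1 passed the rule. This was Irs1, with 2321 and 1401 reads (log2 -0.81, -0.91 to -0.72), so the receptor gene Igf1r and this main substrate gene were both lower. Its relative Irs2 had 968 and 875 reads (log2 -0.23) and did not pass. The 14 genes of the PI3K, AKT, MTOR and FOXO branch had a median log2 ratio of -0.18, with 11 not past the rule. The kinase subunit gene Pik3cb (1.17) and the forkhead factor gene Foxo3 (0.69) were higher, and the regulatory subunit gene Pik3r2 was lower (-1.13). Foxo3 was short of the ratio of 1.5 with FPKM, at 0.58 and 0.56, and just short of it with total counts. The 3 IGF2 mRNA-binding protein genes lay between -0.48 and -0.16 and none passed.

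**Figure D5:**
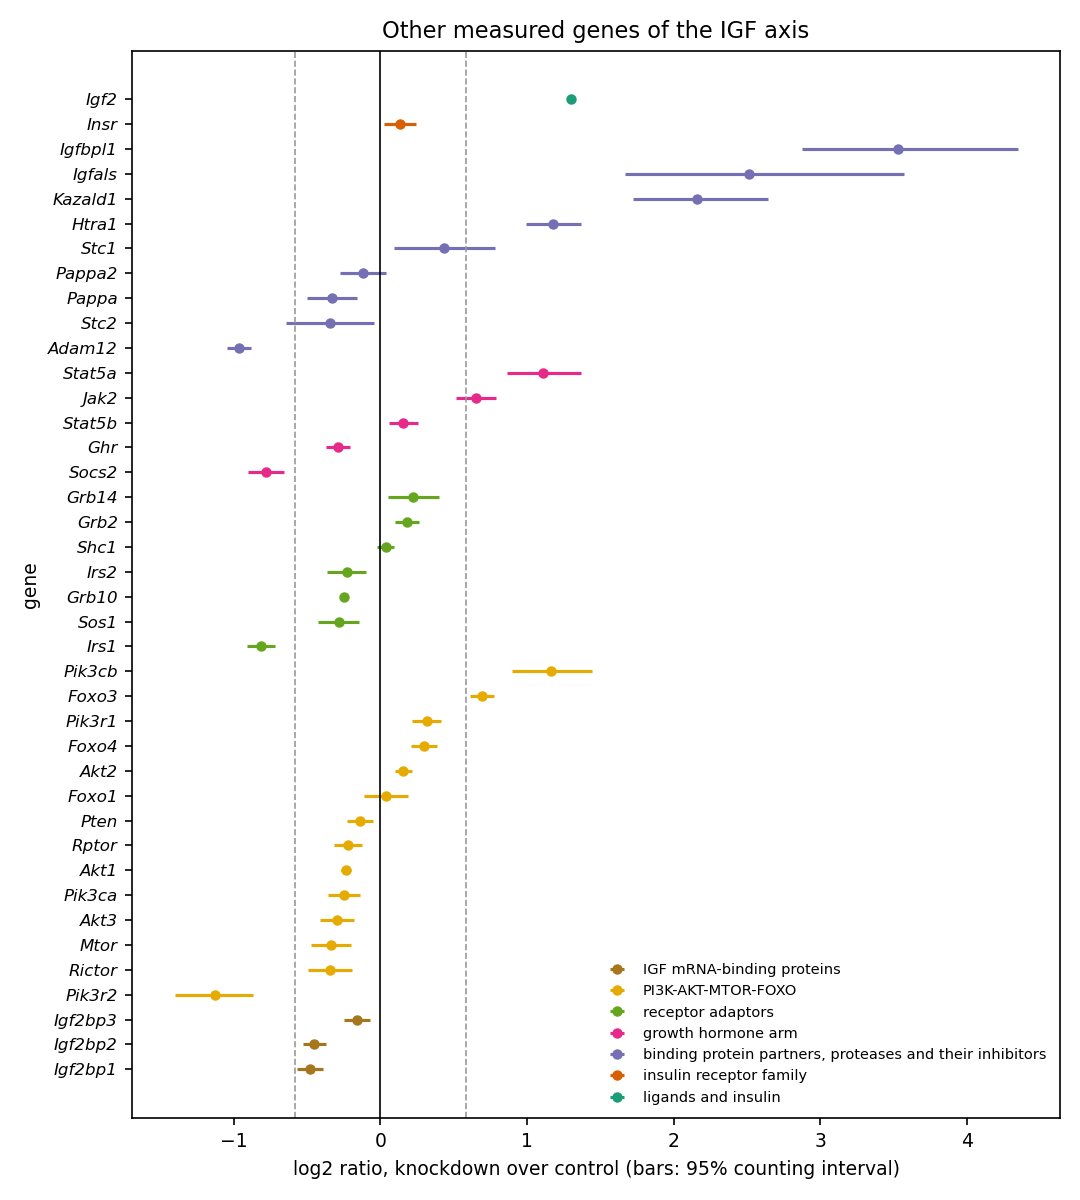
Log2 ratio of knockdown over control with 95% counting intervals for the 40 other measured IGF axis genes, coloured by role, with dashed lines at a ratio of 1.5 in either direction. Most adaptor and kinase genes lie between the dashed lines, and Igfbpl1, at 3.53, is the highest.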

How the data were processed

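Per the labels' protocols, RNA was extracted with TRIZOL and made into libraries with a NEBNext Ultra kit. Tools listed in the submitters' processing notes are HTSeq 0.6.1, TopHat2 2.0.12 and Bowtie2 2.2.3, with mm10 as build. Neither the gene annotation nor the strand setting, nor how reads that map to several places were handled, is stated there. The authors deposited raw read counts per gene and FPKM. The deposited FPKM equalled the count divided by a whole gene length (within 0.001 bp) and by the library's total for 100% of 22831 genes that both libraries detected, so FPKM ratios between libraries are total-count ratios.

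Of the 41709 entries 40269 were matched to symbols by NCBI number through RefSeq genes of GRCm38.p6, the assembly behind mm10. Strand and exons came from GENCODE M21. Counts were scaled with edgeR 4.0.16 (factors 1.04 for control and 0.963 for knockdown). Ratios used a prior count of 0.5 and exact Clopper-Pearson 95% intervals of the 2 counts given their sum. Ratios between 2 genes within libraries used exact conditional odds ratio intervals. All intervals cover counting error only, and PCR copies may make them too narrow. No test between genotypes was possible with 1 library each. The scripts were tested on simulated data.

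The members, the pathway and marker lists and the rules were chosen with earlier results of these data known. Named were all 10 members, both nearest measured neighbours of each (those of Igf1 and Igf2r are not reported here), Igf2, Insr, up to 4 genes past the rule of each pathway list by the interval bound nearest to no change, and up to 2 most-read markers of a list. Genes named beyond that (Adam12, Pappa, Pappa2, Irs2, the other mesenchyme markers, the insulin and growth hormone genes, overlapping transcripts) were chosen after their values were seen. A planned comparison of protein sequences was not run. Alternatives were total counts, totals that leave out erythroid and mitochondrial genes, DESeq2 1.42.0 size factors, a trimmed mean that skips genes with under 10 control reads and at least 50 knockdown reads, a prior count of 2, FPKM with pseudocounts of 0.1 and 1, read minima of 1, 10 and 200, a ratio of 2, a 99% interval, lung lists as reference, and read counts or exon union lengths (added after seeing the data) for levels.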

Additional observations from a re-analysis of the deposited data

How the results depend on the processing

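Leaving out a replicate was not possible with 1 library per genotype. No paired analysis was possible because each genotype has 1 library. Over all 14569 measured genes, a ratio of 2 in place of 1.5 left 2040 higher and 703 lower, and DESeq2 size factors gave 3127 and 1653. Of the 10 IGF genes, a ratio of 2 left 2 higher (Igfbp1 and Igfbp3) and 0 lower, and DESeq2 size factors left 1 lower. Their median of 0.57 was 0.46 with total counts, 0.49 with totals that leave out erythroid and mitochondrial genes, 0.46 and 0.44 with FPKM at pseudocounts of 0.1 and 1, and 0.98 as a mean. The median of the other IGF axis genes, -0.13, turned to 0.20 as a mean and to 0.036 with a minimum of 1 read, and a ratio of 2 left 1 of them lower. A minimum of 200 reads left 11678 genes in all, of which 1956 were higher and 1265 lower. Total counts gave 2673 higher and 2436 lower of 14569 in place of 3020 and 1795, shifting the median of all measured genes from -0.01 to -0.12. Igfbp1 was 3.99 with FPKM at a pseudocount of 1. Of 30 values set against the median of a lung list, 11 stayed within their counting interval, 17 moved outside it and 2 changed sign. The sign changes were those of the lower genes Igf1r and Igfbp2 against the epithelium median, at 1.40 and 1.12. Against the mesenchyme median they stayed at -0.60 and -0.88. With other scalings, prior count or unit, 118 of 161 single gene values stayed within their counting interval, 43 moved outside it and 0 of the called ones changed sign. Among the 10 IGF genes, depth left the widest intervals for Igfbp1 (log2 5.54 to 7.91), with 7 control reads, and Igfbp6 (0.57 to 1.13), with 164.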
